A study of Mus musculus with 8 samples.

Results

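The comparison described here set mouse cells at day 3 of reprogramming against the embryonic fibroblasts (MEFs) they started from. It used 2 of the 8 samples of the series, 1 long RNA library a side. Every row of the deposited gene table with at least 1 FPKM in either library was compared, which gave 11740 of 17922 rows, and the account of gene groups rests on the 6871 rows with at least 10 FPKM in either. FPKM relates the fragments of a gene to its length and to all fragments of its library, so a value is a share of its library and not a number of molecules per cell. The fibroblasts came from C57BL/6 embryos at day 13.5 of gestation. All cells, MEFs included, carried the tetO-OSKM transgene, which brings Pou5f1, Sox2, Klf4 and Myc under control of doxycycline. The day 3 cells had been plated at 5000 cells/cm2 within a few passages of isolation and given 2 ug/ml doxycycline. Their medium held 15% Knockout Serum Replacement, 1000 U/mL LIF and 3 uM of the GSK3 inhibitor CHIR99021. How the MEFs were kept is not stated in the labels, so the change of medium and the induction cannot be told apart in any value below. Whether cultures were pooled is not given either, and reads of the induced and the resident copies of the 4 factors are not separated in the table.

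Induced pluripotent stem cells (iPSCs) arise from fibroblasts over weeks of forced expression of these factors. In the early phase cells are known to speed up proliferation and biosynthesis, to lose parts of the fibroblast programme, including contractile and matrix genes, and to gain epithelial adhesion, while the endogenous pluripotency network is still silent. MYC is a general activator of growth genes, whereas OCT4, SOX2 and KLF4 are thought to act first on enhancers that are active in fibroblasts.

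The 2 libraries were alike. Their log2(FPKM + 1) values correlated with a Pearson r of 0.992 over 11740 genes, which describes genes and not replicates. Over the 6871 rows of 10 FPKM or more, the difference of log2(FPKM + 1), day 3 minus MEF, had a median of -0.03, quartiles of -0.13 and 0.08, and a robust SD of 0.150. This SD holds both noise and real differences, and since each group had 1 library there is no replicate error and nothing was tested. A difference of 0.25 (about 1.19-fold) was used as a mark for a small shift. It was reached upward by 438 rows (6.37%) and downward by 462 rows (6.72%). The split between the directions moved with the scaling: setting the median difference to 0 gave 569 and 334, and giving both libraries the same total without mitochondrially encoded genes and the 50 highest rows gave 670 and 264. For that reason groups are read against the median of all rows. The FPKM columns summed to 486609 in MEFs and 466713 at day 3. The lowest values put the number of fragments at day 3 at 0.645 of that in MEFs, so weakly expressed genes were less precise at day 3. Values are also given at day 6 and in iPSCs for some genes, as context for the level only.

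**Figure D1:**
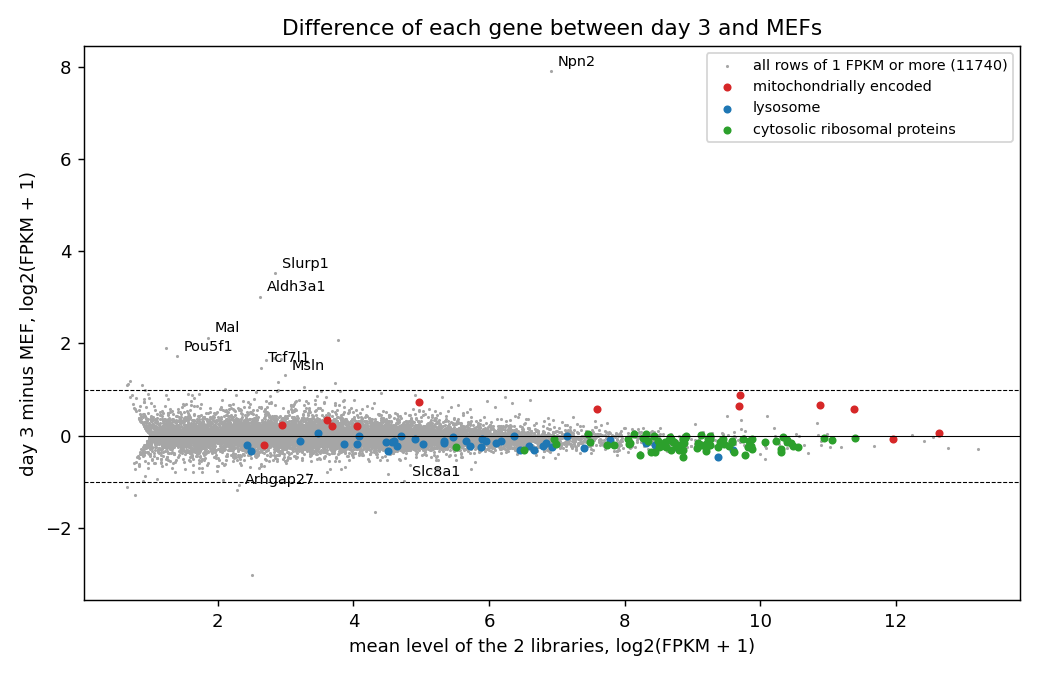
Each point is a gene, with the mean of both libraries on the horizontal axis and the difference day 3 minus MEF on the vertical axis, both as log2(FPKM + 1). Most genes lie close to 0, and of the rows of 10 FPKM or more 7 were 2-fold or more higher and 1 was 2-fold or more lower. All 7 were under 10 FPKM in MEFs, and the 1 lower row was under 10 FPKM at day 3.

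The induced factors were above their MEF values by small amounts in FPKM. Pou5f1 (ENSMUSG00000024406), the gene of OCT4, stood at 0.226 FPKM in the MEF library and 3.03 at day 3, a difference of 1.72. Sox2 was at 0.411 and 1.19 FPKM (0.63), Klf4 at 10.6 and 13.7 (0.34), and Myc at 16.8 and 21.2 (0.32). All 4 were thus above their MEF value and past 0.25. Of 27 pluripotency genes measured, 2 reached 10 FPKM (Klf2 and Trim28), and 6 of the 27 were listed at 0 at day 3 and 1 in MEFs. Over all 17922 rows, 1578 were listed at 0 at day 3, the library with fewer fragments, and 1306 in MEFs. Klf2, a transcription factor related to Klf4, stood at 28.9 FPKM in the MEF library and 25.1 at day 3. The labelled cell type was checked against 16 fibroblast markers: 12 reached 10 FPKM, with sums over the list of 9545 FPKM in the MEF library and 9576 at day 3. Vim, the intermediate filament of mesenchymal cells, was at 3537 and 3021 FPKM, and Col1a1, a chain of type I collagen, at 939 and 1257.

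Few genes passed 2-fold. Among rows of 1 FPKM or more 20 were higher (0.17%) and 6 lower (0.0511%). Among rows of 10 FPKM or more 7 were higher (0.102%) and 1 lower (0.0146%). All 7 were under 10 FPKM in MEFs and passed that level only through day 3, so they had to be higher there. The 1 lower row passed it only through MEFs. Of the 26 rows of 1 FPKM or more, 10 had predicted or clone names and 10 were under 5 FPKM in both libraries. Of the same 26, 5 were listed at 0 in MEFs and 2 at day 3. The symbol 2810453I06Rik entered on both sides through different identifiers, with 9.06 and 0.238 FPKM (-3.02) on 1 row and 2.69 and 10.6 (1.66) on the other. Lower genes included 2210012G02Rik at 29.4 and 8.65 FPKM (-1.66), which was at 35.8 at day 6, and Arhgap27, a GTPase activator gene, at 5.75 and 2.00 (-1.17). Of the 20 higher genes 7 were less than 0.25 above MEFs at day 6. The zinc finger gene Zfp618 (7.28, 17.2 and 6.95 FPKM in the MEF, day 3 and day 6 libraries) and the small GTPase gene Rabl2 (5.25, 12.1 and 4.21 FPKM) were of this kind. Others stayed above their MEF value at day 6, and some of these went on in the same direction. Slurp1, a secreted protein of stratified epithelia, had 0.143, 12.2 and 67.9 FPKM at the same stages. Msln, which encodes the surface protein mesothelin, had 3.55, 10.3 and 20.0 FPKM. Over 9 mesothelial markers, Msln included, the summed level was 14.03 FPKM in the MEF library and 22.2 at day 3. Of the 3 markers of 1 FPKM or more 2 were above MEFs, Msln itself and the keratin gene Krt19 (2.37 and 5.24 FPKM). The other, Krt7, was below at 7.37 and 6.09 FPKM. Of the 9, 2 were listed at 0 in MEFs and 1 at day 3, and the part of such cells was not tested. Tcf7l1, a repressor of WNT target genes, had 2.28, 8.12 and 8.15 FPKM. Npn2 (ENSMUSG00000060411), the largest difference of all, had a listed 0 in MEFs, 239 FPKM at day 3 and 74.3 at day 6, and a listed 0 can be a failed estimate.

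Short of the 2-fold rule, which applies to FPKM + 1, lay further named genes on both sides. Slc8a1 (ENSMUSG00000054640), the sodium-calcium exchanger of the plasma membrane, was at 34.9 FPKM in the MEF library and 17.0 at day 3, a difference of -0.99, and at 21.2 at day 6. Ppp1r14a, an inhibitor of myosin phosphatase in smooth muscle, was at 16.6 and 9.66 FPKM (-0.72), and then at 5.31 at day 6. Fggy, a carbohydrate kinase gene, was at 28.0 and 15.4 FPKM (-0.82), and back at 29.1 at day 6. Higher genes included the following. Mdn1, the AAA ATPase of ribosome assembly, stood at 6.83 and 13.3 FPKM (0.87), and so passed 10 FPKM only through day 3. Hspg2, the basement membrane proteoglycan perlecan, stood at 71.0 and 121 FPKM (0.76). Lrp1, an endocytic receptor, stood at 60.4 and 98.8 FPKM (0.70). The calcium-binding annexin gene Anxa8 was at 52.8, 95.3 and 110 FPKM in the MEF, day 3 and day 6 libraries.

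The difference moved with 2 properties of the genes. Between 10 equal groups of rows ordered by genomic span (RefSeq gene models, known for 6842 rows, 99.6%), the median difference went from -0.12 in genes of 297 to 4394 bases to 0.05 in genes of 112937 bases or more. By mean level, the median was -0.01 in 3871 rows of 10 to 30 FPKM, -0.04 in 2086 rows of 30 to 100, -0.08 in 502 rows of 100 to 300, and -0.13 in 46 rows of 1000 FPKM or more. Short and abundant genes thus lay low, and long genes high, across the whole table. The part of span or level in any single result was not tested, so group values are also given after subtracting the median of rows of the same span group (called the span median). Genomic span is not transcript length, and the part of transcript length was not examined.

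**Figure D2:**
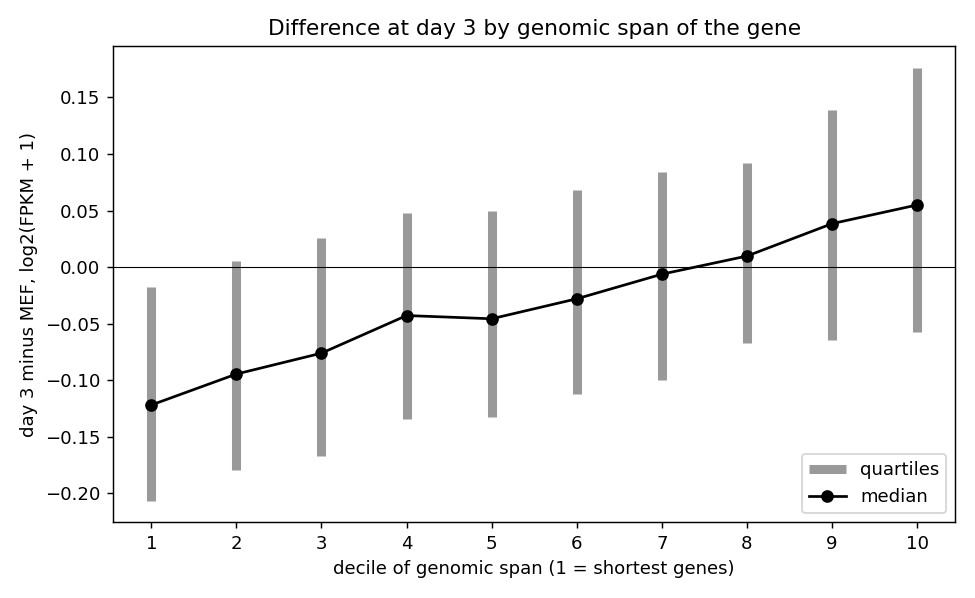
Median (line with points) and quartiles (bars) of the difference day 3 minus MEF on the log2(FPKM + 1) scale, for genes of 10 FPKM or more in 10 groups of genomic span. The median runs from -0.12 in the shortest genes to 0.05 in the longest.

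Of 80 gene lists, 69 had at least 5 members of 10 FPKM or more. A list was described as shifted where its median lay at least 0.1 from the median of all rows and at least 75% of its members lay on that side of it. By this rule 6 lists were shifted up, 4 were shifted down and 59 were not. Over all rows of 10 FPKM or more, 41.9% were above their MEF value and 58.1% below.

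**Figure D3:**
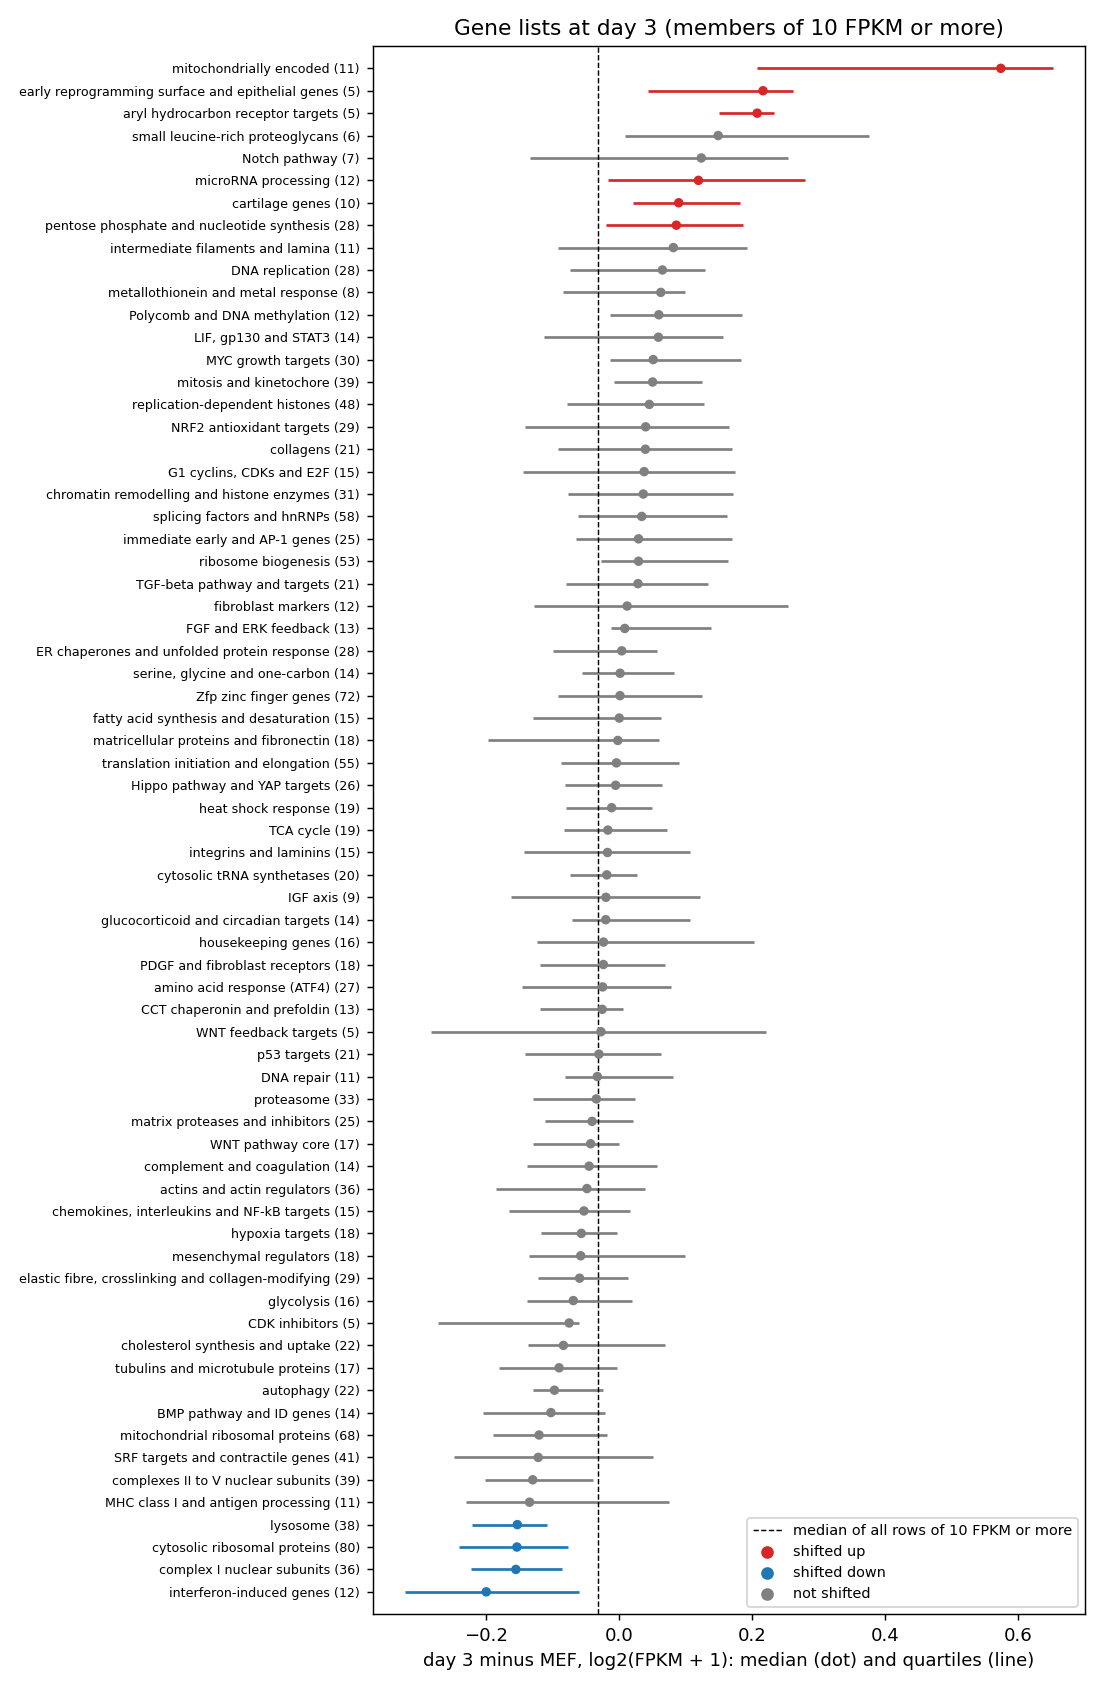
Median (dot) and quartiles (line) of the difference day 3 minus MEF, log2(FPKM + 1), for 69 gene lists, with the number of members of 10 FPKM or more in brackets. The dashed line is the median of all such rows, -0.03; mitochondrially encoded genes (0.57) stand at the top and interferon-induced genes (-0.20) at the bottom.

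Lysosomal genes were lower at day 3 almost throughout. The lysosome degrades material taken up by endocytosis or autophagy by means of acid hydrolases, a proton pump and a heavily glycosylated membrane. Of 41 lysosomal genes measured, 38 reached 10 FPKM, and 37 of them lay below their MEF value and 1 above. The median difference was -0.15, and 8 of the 38 were past -0.25. The one gene above, the heparan sulfatase Sgsh, was at 9.90 and 10.4 FPKM and reached the level only at day 3. After subtraction of the span median the list stood at -0.12, with 34 of 38 below. It was the only shifted-down list that met the rule under every alternative setting, 12 of 12. The summed level over the list was 5310 FPKM in the MEF library, 4509 at day 3, 4188 at day 6 and 1728 in iPSCs.

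The proteases led. Ctsl (ENSMUSG00000021477), the cysteine protease cathepsin L, was at 766 FPKM in the MEF library, 557 at day 3, 468 at day 6 and 125 in iPSCs, a difference of -0.46 at day 3. Ctsd (ENSMUSG00000007891), the aspartic protease cathepsin D, was at 858, 687, 691 and 226 FPKM (-0.32). Ctsz, a carboxypeptidase, was at 111 and 89.8 FPKM in the MEF library and at day 3 (-0.30). Members of other classes were lower by like amounts. Npc2, which carries cholesterol out of the lysosome, had 96.9 and 77.5 FPKM (-0.32), and Lamp1, a main glycoprotein of the membrane, 481 and 402 (-0.26). Hexa, a subunit of the hexosaminidase that degrades gangliosides, had 119 and 102 FPKM (-0.22), and Psap, the precursor of the saposin activators, 374 and 324 (-0.21). The proton pump subunits of the list were Atp6v0c, Atp6v0d1, Atp6v1a, Atp6v1b2 and Atp6v1h, all below MEFs, from Atp6v1a with 71.6 and 64.3 FPKM (-0.15) to Atp6v1b2 with 29.7 and 28.3 (-0.07). At the other end Cd63, a tetraspanin of late endosomes, had 142 and 141 FPKM. Of 22 autophagy genes of 10 FPKM or more, 19 were below MEFs and 0 past -0.25, with a median of -0.10, which did not meet the rule. Gabarap, an ATG8 protein of the autophagosome membrane, had 431 and 373 FPKM.

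Many lysosomal promoters hold the E-box CACGTG, the core of the element bound by TFEB and TFE3 and also a site of MYC and MAX. In RefSeq promoters on GRCm38.p6, from 250 bases before to 50 after the start, the letters CACGTG (the same on both strands) stood in 12 of 32 promoters of the list (37.5%), in 7.15% of all 32851 promoters, and in 10.5% of the 7198 promoters of genes of 10 FPKM or more. The longer form with GT before and AC after these letters stood in 0 of the 32 and in 0.326% of all promoters. Among members of 10 FPKM or more with a promoter in the table, the median difference was -0.18 for the 12 with the E-box and -0.15 for the 16 without, so members of both kinds were lower. A match describes letters and is not a site. The promoters of the cathepsin genes and of Lamp1 are shown because they belong to the most abundant lower members and differ in how many E-boxes they hold, 1 in Ctsl, 2 in Ctsd and 4 in Lamp1. Capitals mark CACGTG, and the sequences run 5′ to 3′ on the strand of the gene at chr13:64370471-64370770 (minus), chr7:142387778-142388077 (minus) and chr8:13158911-13159210 (plus).
Ctsl: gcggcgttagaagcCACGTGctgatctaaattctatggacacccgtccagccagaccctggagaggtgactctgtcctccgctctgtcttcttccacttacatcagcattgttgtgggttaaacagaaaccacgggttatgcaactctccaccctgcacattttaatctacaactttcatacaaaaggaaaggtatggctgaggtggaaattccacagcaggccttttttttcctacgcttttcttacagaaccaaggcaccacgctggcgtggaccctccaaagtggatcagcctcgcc
Ctsd: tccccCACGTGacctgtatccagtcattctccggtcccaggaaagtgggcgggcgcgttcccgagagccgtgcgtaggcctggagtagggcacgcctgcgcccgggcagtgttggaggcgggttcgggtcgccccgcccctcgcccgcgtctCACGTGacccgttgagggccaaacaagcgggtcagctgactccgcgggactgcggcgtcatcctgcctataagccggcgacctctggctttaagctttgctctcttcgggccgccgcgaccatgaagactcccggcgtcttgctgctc
Lamp1: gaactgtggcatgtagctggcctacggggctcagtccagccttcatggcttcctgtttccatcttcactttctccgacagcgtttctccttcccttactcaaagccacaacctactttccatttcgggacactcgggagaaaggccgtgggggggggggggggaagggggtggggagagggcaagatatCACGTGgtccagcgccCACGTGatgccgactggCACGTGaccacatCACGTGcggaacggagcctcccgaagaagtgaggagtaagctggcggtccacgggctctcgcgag

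Interferon-induced genes formed the list with the lowest median. These genes are switched on by interferon signalling and restrict viruses. Of 46 measured, 12 reached 10 FPKM, with a median of -0.20, 10 below MEFs and 6 past -0.25. Of the 12, 2 passed the level only through MEFs and had to be lower at day 3, Irf9 among them, and 1 only through day 3. Among the 34 of 1 FPKM or more the median was -0.24, with 30 below, 17 past -0.25 and 1 past 0.25. Of all rows of that level 53.8% were below, 46.2% were above, 7.83% were past -0.25 and 8.57% past 0.25. Irf9 (ENSMUSG00000002325), the DNA-binding subunit of the activator, was at 12.8 FPKM in the MEF library, 9.16 at day 3 and 12.8 at day 6 (-0.44 at day 3). Irgm1, an immunity-related GTPase, was at 51.0, 40.8 and 45.7 FPKM (-0.32). Lgals3bp, a secreted glycoprotein, was at 33.0, 25.8 and 50.6 FPKM (-0.34). At day 6 Irf9 was again at its MEF level, Lgals3bp above it and Irgm1 between its values in MEFs and at day 3. Ddx58, the RNA sensor RIG-I, was at 23.6 and 19.6 FPKM (-0.26), and at low level Ifit1, an RNA-binding effector, was at 2.03, 1.02 and 2.50 FPKM. The membrane proteins Ifitm2 and Ifitm3, the most abundant members, were near their MEF level, with 241 and 229 FPKM and 174 and 175 FPKM. After subtraction of the span median the list stood at -0.11 with 8 of 12 below, short of 75%, and did not meet the rule.

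The interferon-stimulated response element was searched on both strands as TTTC, any 2 bases, and TTTC. It stood in 6 of 17 promoters of the list (35.3%) and in 3.44% of all promoters. Members of 10 FPKM or more with it (6) had a median of -0.17 and those without (6) of -0.24. The promoter of Irgm1, at chr11:48871371-48871670 (minus strand), is shown because it belongs to the most abundant member past -0.25. Capitals mark a pair of overlapping matches, read on the other strand, that begin 30 bases before the start.
Irgm1: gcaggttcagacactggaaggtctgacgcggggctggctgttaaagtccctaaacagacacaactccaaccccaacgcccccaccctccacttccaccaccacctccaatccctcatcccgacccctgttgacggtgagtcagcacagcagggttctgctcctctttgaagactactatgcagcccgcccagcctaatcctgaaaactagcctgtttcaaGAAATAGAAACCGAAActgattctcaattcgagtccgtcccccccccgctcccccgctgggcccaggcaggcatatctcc

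The main class I chain genes and most leukocyte markers were also below their MEF values. H2-K1 and H2-D1, which encode the classical class I heavy chains, were at 55.3 and 40.0 FPKM (-0.46) and at 74.0 and 57.6 (-0.36). B2m, their light chain, was at 1478 and 1223 FPKM (-0.27). Members of the class I gene family are nearly alike in sequence, so the assignment of fragments among them is uncertain. The list of 11 had a median of -0.13 with 7 below and was not shifted by the rule. Of 19 markers of macrophages and other leukocytes, 12 reached 1 FPKM and 11 of these were below MEFs. Their summed level was 111 FPKM in the MEF library, 85.0 at day 3, 95.9 at day 6 and 56.1 in iPSCs, and none was listed at 0 in MEFs or at day 3. Lyz2, the lysozyme of macrophages, was at 52.9 and 36.2 FPKM (-0.54), Cd52 at 3.36 and 1.81 (-0.63), and C1qb, a complement subunit, at 6.42 and 6.59 (0.03). Macrophages are rich in lysosomal and class I transcripts, and the part of these cells in the lower lysosomal, interferon and class I values was not tested. In bulk RNA, fewer cells of a type and less RNA per cell cannot be told apart.

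**Figure D4:**
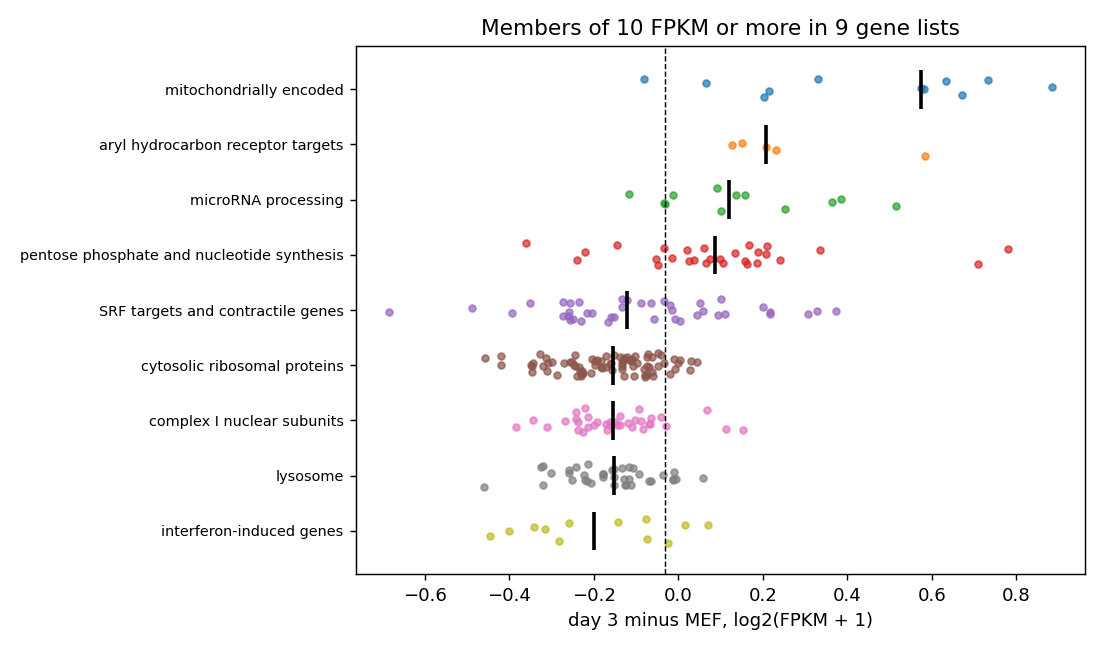
Every member of 10 FPKM or more of selected lists as a point, with the difference day 3 minus MEF, log2(FPKM + 1), on the horizontal axis. SRF targets and contractile genes are shown although that list was not shifted. The shifted cartilage and early reprogramming lists are not shown. Lysosomal genes lie almost all below 0, while the mitochondrially encoded genes spread from -0.08 to 0.89.

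Ribosomal protein genes and nuclear genes of the respiratory chain were mostly lower, by small amounts. All 80 cytosolic ribosomal protein genes reached 10 FPKM, with a median of -0.15, 76 below MEFs and 17 past -0.25. They took 11.4% of all FPKM in the MEF library and 10.6% at day 3. Rpl39, a short protein lining the exit tunnel, was at 535 and 390 FPKM (-0.46), Rpl13a at 1419 and 1115 (-0.35), and Rps10 at 376 and 296 (-0.35). Rps16 was at 314 and 324 FPKM (0.04) and Rpl28 at 556 and 557. Ribosomal protein genes have many processed pseudogenes, so fragments can be split between copies and single members are uncertain. These are short and abundant genes: after subtraction of the span median the list stood at -0.04, and after subtraction of the median of rows of like level at -0.06, and it met the rule in neither case. The 68 mitochondrial ribosomal protein genes had a median of -0.12 (56 below, 7 past -0.25) and were not shifted by the rule. With the span median subtracted they stood at -0.03 with 44 of 68 below.

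Complex I, the NADH dehydrogenase that feeds electrons into the respiratory chain, is assembled from nuclear and mitochondrial products. Of its 36 nuclear subunits of 10 FPKM or more, 33 were below MEFs and 4 past -0.25, with a median of -0.16. Ndufa6 was at 58.8 and 44.9 FPKM (-0.38), Ndufb10 at 63.4 and 49.8 (-0.34), and Ndufc1 went furthest the other way at 89.9 and 100 (0.15). With the span median subtracted the list stood at -0.08, just inside the limit of 0.1, with 27 of 36 below. The 39 nuclear subunits of complexes II to V had a median of -0.13 (34 below), among them Cox6c, a subunit of cytochrome oxidase, at 264 and 208 FPKM (-0.34). This list was not shifted by the rule, and with the span median subtracted it stood at -0.04 with 23 of 39 below. Sdha, the flavoprotein of succinate dehydrogenase, was at 64.1 and 73.9 FPKM (0.20).

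Transcripts encoded in the mitochondrial genome stood on the other side. They are cut from long precursors of both strands, and the 13 genes of the list all encode subunits of the respiratory chain or ATP synthase. Of 13 measured, 11 reached 10 FPKM, with a median of 0.57, 10 above MEFs and 7 past 0.25. Of the 11, 1 passed the level only through day 3. Over all 13 the median was 0.33. Together they took 3.16% of all FPKM in the MEF library and 3.92% at day 3. mt-Nd4 (ENSMUSG00000064363) was at 582 FPKM in the MEF library, 1075 at day 3 and 962 at day 6 (0.89 at day 3). mt-Nd2 was at 1461, 2330 and 2586 FPKM (0.67), and mt-Cytb at 2145, 3211 and 3042 (0.58). mt-Nd6, the gene on the opposite strand, was at 154, 229 and 188 FPKM (0.57). The members did not move as a block. mt-Co1, the most abundant, was at 6222 and 6507 FPKM (0.06), and mt-Nd1 at 4096 and 3872 (-0.08). Nuclear copies of mitochondrial sequence make the assignment of fragments uncertain for these genes, and mt-Co2, mt-Co3 and mt-Atp6 were listed at only 9.79 to 14.3 FPKM in the MEF library. Genomic span was known for 1 of the 11, so no span value is given.

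Nucleotide synthesis genes were higher. Dividing cells build purines and pyrimidines from amino acids, bicarbonate and ribose phosphate of the pentose phosphate pathway. Of 32 genes measured, 28 reached 10 FPKM, with a median of 0.09, 20 above MEFs, 3 past 0.25 and 1 past -0.25. The summed level went the other way, from 1359 FPKM in the MEF library to 1315 at day 3. Cad (ENSMUSG00000013629), which carries the opening steps of pyrimidine synthesis, was at 9.72 FPKM in the MEF library, 17.4 at day 3, 15.9 at day 6 and 56.7 in iPSCs (0.78 at day 3). Pfas (ENSMUSG00000020899), a purine synthesis enzyme, was at 6.60, 11.4, 10.3 and 38.6 FPKM (0.71). Impdh1, an enzyme of guanine nucleotide synthesis, was higher by 0.33. Cad and Pfas passed the level only through day 3, and a gene that passes in this way had to be higher there. Smaller differences ran through the rest, such as Tyms (thymidylate synthase) at 27.0 and 31.3 FPKM (0.21), Rrm2 (ribonucleotide reductase) at 32.4 and 37.6 (0.21) and Paics (purine synthesis) at 115 and 131 (0.19). Nme2, a nucleoside diphosphate kinase and the most abundant member, went the other way, at 336 and 261 FPKM (-0.36), as did Tkt (transketolase) at 111 and 99.9 (-0.14). With the mean of both libraries held to 10 FPKM the median was 0.07 and the rule was not met. With the span median subtracted it was 0.11, with 23 of 28 above. The E-box CACGTG stood in 6 of 36 promoters of the list (16.7%), against 10.5% of promoters of genes of 10 FPKM or more. The 5 members with it had a median of 0.16 and the 22 without of 0.06. Among MYC growth targets, with the E-box in 10 of 32 promoters (31.3%), the order was the other way, at 0.03 for the 9 with it and 0.06 for the 16 without.

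Other growth lists lay on the same side by less. MYC growth targets (30 members, which include Cad and Nme2) had a median of 0.05 with 19 above, at a summed level over the list of 2904 and 2863 FPKM, and ribosome biogenesis factors (53) had 0.03 with 33 above. In each list 3 members passed the level only through day 3, Ncl among them, and had to be higher there. Neither list met the rule as it stands, and both met it once the span median was subtracted, at 0.11 and 0.10. Ncl, nucleolin of the nucleolus, was at 7.68 and 14.5 FPKM (0.83), Tfrc, the transferrin receptor, at 11.0 and 15.6 (0.47), and Mybbp1a, a nucleolar protein, at 24.2 and 30.4 (0.32). Of 39 mitosis genes 29 were above MEFs, with a median of 0.05 and 3 past 0.25, and 3 of the 39 passed the level only through day 3. This list did not meet the rule as it stands, and met it with the span median subtracted, at 0.10 with 32 of 39 above, and at a level of 30 FPKM, at a median of 0.07. Ect2, which starts cytokinesis, was at 12.7 and 15.7 FPKM (0.29), Birc5 (survivin) at 30.7 and 36.9 (0.26) and Cdk1, the mitotic kinase, at 63.2 and 58.9 (-0.10). DNA replication genes (28) had a median of 0.07 and 2 past 0.25, Pold2 and Lig1. Among the CDK inhibitors Cdkn2a, the Ink4a/Arf gene that limits reprogramming, was at 84.7 and 67.7 FPKM (-0.32), Cdkn2b at 41.3 and 34.0 (-0.27), and Cdkn1a (p21) at 66.1 and 76.6 (0.21).

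A small set of xenobiotic response genes was higher. The aryl hydrocarbon receptor is a ligand-activated factor that induces detoxification enzymes. This list was drawn up with Aldh3a1 already known to be high, so its direction is no independent evidence. Of its 12 measured genes 5 reached 10 FPKM, with a median of 0.21, 5 above MEFs and 1 past 0.25. That gene, Nqo1 (a quinone reductase), was at 41.2 FPKM in the MEF library, 62.3 at day 3 and 159 at day 6 (0.58 at day 3). Cyp1b1, a cytochrome P450 and the most abundant member, was at 175, 191 and 215 FPKM (0.13). The other members of this level were Tiparp (0.23), Arnt (0.21) and Nfe2l2 (0.15). Arnt, the partner protein of the receptor, and Nfe2l2, the gene of NRF2, are no detoxification enzymes, and the list median was the value of Arnt. Below the level Aldh3a1, an aldehyde dehydrogenase of barrier epithelia, was at 0.360, 9.97 and 70.2 FPKM. The receptor gene Ahr itself was at 6.65, 8.48 and 23.5 FPKM. Targets of NRF2 (29), the oxidative stress factor, had a median of 0.04 and were not shifted. Gclm, a subunit of the glutathione synthesis enzyme, was at 12.3, 18.6 and 27.8 FPKM (0.56), Blvrb (biliverdin reductase B) at 15.2, 11.8 and 29.0 (-0.34).

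MicroRNA pathway genes were also higher as a list. Drosha and Dicer cut microRNA precursors, and Argonaute proteins carry the product. Of 12 members of 10 FPKM or more 8 were above MEFs and 4 past 0.25, with a median of 0.12. Eif2c2 (ENSMUSG00000036698), the gene of Argonaute 2, was at 11.0 FPKM in the MEF library, 16.1 at day 3 and 14.5 at day 6 (0.52 at day 3). Eif2c3 (Argonaute 3) was at 12.8, 16.7 and 14.1 FPKM (0.36). The other members past 0.25 are no processing enzymes: Hmga2, a chromatin protein and let-7 target, was at 21.5 and 28.4 FPKM (0.39) and Hmga1 at 31.4 and 37.6 (0.25). Drosha was at 11.1 and 12.5 FPKM (0.16) and Dicer1 at 13.9 and 15.0 (0.10). The median span of the list was 57762 bases, and with the span median subtracted its median was 0.09 and the rule was not met. Large regulators of chromatin and transcription held several high values without a shift of the list (31 genes, median 0.04, 7 past 0.25). Of the 31, 4 passed the level only through day 3, Crebbp among them, and had to be higher there. Crebbp, a histone acetyltransferase, was at 10.0 and 14.6 FPKM (0.50), and its relative Ep300 at 9.56 and 12.4 (0.34). Polr2a, the largest subunit of RNA polymerase II, was at 6.97 and 12.6 FPKM (0.78). Ep300 and Polr2a likewise passed the level only through day 3.

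Contractile genes divided. SRF and its cofactors drive the genes of smooth muscle contraction that are characteristic of activated fibroblasts. Of 41 such genes of 10 FPKM or more, 28 were below MEFs, 10 past -0.25 and 3 past 0.25, with a median of -0.12. The list missed the rule on both counts. Its median lay less than 0.1 from the median of all rows, and 25 of the 41 members lay below that median, short of 75%. The smooth muscle genes led: Myh11, the smooth muscle myosin heavy chain, was at 17.2 FPKM in the MEF library, 10.3 at day 3 and 2.44 at day 6 (-0.68 at day 3). Cnn1, calponin of the actin filament, was at 146, 104 and 46.8 FPKM (-0.49). Myl9, the regulatory light chain, was at 1163, 886 and 554 FPKM (-0.39). Members past 0.25 included 2 of other roles. Actn4, an alpha-actinin, was at 167 and 210 FPKM (0.33), and Mkl1, the SRF cofactor MRTF-A, at 15.3 and 20.1 (0.37). Srf itself was at 19.5 and 18.6 FPKM. A separate list of 36 actins and actin regulators had a median of -0.05, with 25 below MEFs, 4 past -0.25 and 0 past 0.25, and was not shifted. Over 16 markers of skeletal and cardiac muscle the summed level was 45.4 and 37.0 FPKM, nearly all of it Acta1, with 1 listed at 0 in MEFs and 3 at day 3, and its part in the contractile values was not tested.

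The CArG box, the site of SRF, was searched on both strands and stood in 8 of 47 promoters of the list (17.0%) and in 1.63% of all promoters. The 7 members of 10 FPKM or more with it (Cnn2, Fhl1, Fhl2, Myl6, Myl9, Srf and Vcl) were all below MEFs with a median of -0.22, and of the 29 without it 17 were below with a median of -0.03. The promoter of Myl9, at chr2:156775214-156775513 (plus strand), is shown as that of the member with the box and the largest difference. Capitals mark the box, which begins 161 bases before the start.
Myl9: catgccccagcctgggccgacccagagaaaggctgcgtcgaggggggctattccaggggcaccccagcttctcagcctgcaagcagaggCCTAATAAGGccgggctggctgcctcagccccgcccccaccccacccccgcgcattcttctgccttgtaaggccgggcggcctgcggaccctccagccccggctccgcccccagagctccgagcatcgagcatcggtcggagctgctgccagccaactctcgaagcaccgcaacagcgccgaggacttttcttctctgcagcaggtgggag

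**Figure D5:**
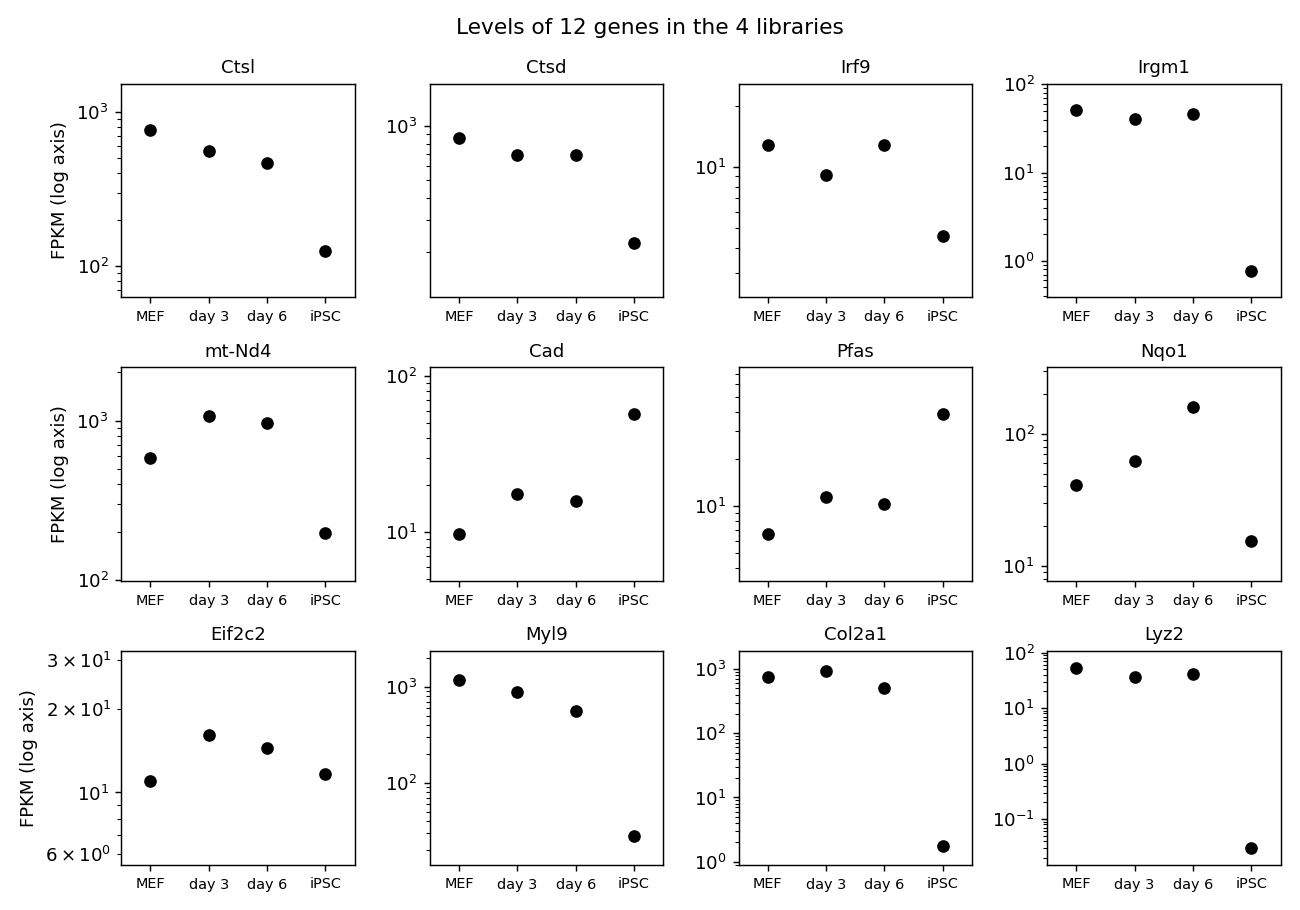
Level in FPKM (log axis) of genes named in the text in the 4 long RNA libraries, 1 point a library. The steps between MEFs and day 3 are small beside those to iPSCs in most of these genes, as for Ctsl at 766, 557, 468 and 125 FPKM.

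Matrix genes lay on both sides. The 21 collagen genes of 10 FPKM or more had a median of 0.04, with 4 past 0.25 and 2 past -0.25. Col1a1 was at 939 and 1257 FPKM (0.42) but its partner chain gene Col1a2 at 1457 and 1505 (0.05), and Col3a1 at 553 and 491 (-0.17). Col6a3, the long chain of type VI collagen, was at 52.2, 81.3 and 99.6 FPKM in the MEF, day 3 and day 6 libraries (0.63 at day 3). Of 6 small leucine-rich proteoglycans, which bind collagen fibrils, 4 were above, with a median of 0.15. The list fell short of 75% on 1 side as it stands, and met the rule with a pseudocount of 0.1, by the mean of both libraries, at 30 FPKM, and with the span or level median subtracted (both 0.21). Its higher members included Prelp at 24.4 and 36.4 FPKM (0.56) and Fmod (fibromodulin) at 26.5 and 36.5 (0.45). Fn1, fibronectin, was at 1650 and 2003 FPKM (0.28). Other secreted proteins of high level were lower: Igfbp7 was at 1259 and 884 FPKM (-0.51), Ecm1 at 270 and 200 (-0.43), Igfbp2, the most abundant of the IGF-binding proteins, at 10428 and 8553 (-0.29), and Spp1 (osteopontin) at 7598 and 6325 (-0.26).

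Cartilage genes were shifted up at day 3 by the rule, although fibroblast cultures are not cartilage. Of 10 members of 10 FPKM or more 8 were above MEFs, with a median of 0.09 and 1 past 0.25. The rule was not met with the span median subtracted (0.09, 7 of 10 above), with the median of rows of like level subtracted (0.08), with a pseudocount of 5 (0.07) or with no filter (0.04). Col2a1 (ENSMUSG00000022483), the main collagen of cartilage, was at 740 FPKM in the MEF library, 941 at day 3, 503 at day 6 and 1.79 in iPSCs (0.35 at day 3). Acan, the proteoglycan aggrecan, was at 29.3, 33.7 and 17.8 FPKM (0.20). Sox9, the factor that specifies chondrocytes, was at 12.6, 13.3 and 7.85 FPKM (0.08). The cartilage transcripts were thus present in both libraries, with a summed level of 1372 FPKM in the MEF library and 1635 at day 3. Col2a1 held the largest part of both sums and of the rise. Their part in the collagen values was not tested.

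Epithelial and surface genes used to follow early reprogramming were called shifted up on few members. Of 32 measured, 5 reached 10 FPKM, with a median of 0.22, 4 above and 2 past 0.25. The leading one, Cd44 at 70.5, 95.2, 122 and 2.65 FPKM in the MEF, day 3, day 6 and iPSC libraries (0.43 at day 3), is a hyaluronan receptor of mesenchymal cells and no epithelial gene. Tjp1, a tight junction scaffold that fibroblasts also express, was at 39.3 and 47.3 FPKM (0.26), and Icam1 at 13.4 and 11.4 (-0.21). With no filter on level the median over the list was -0.01, on the other side. Among the 12 members of 1 FPKM or more 7 were above MEFs and 5 below. Krt19, a keratin gene, was at 2.37 and 5.24 FPKM (0.89), and Pkp2, plakophilin of desmosomes, at 5.61 and 4.80 (-0.19). Among 18 mesenchymal regulators of 10 FPKM or more, 4 were past 0.25 and 3 past -0.25. Twist1, a driver of the mesenchymal state, was at 27.4 and 22.1 FPKM (-0.30), while the 4 past 0.25 were the nuclear factor I genes Nfia, Nfib, Nfic and Nfix. Nfic was at 14.3 and 22.4 FPKM (0.61), and Nfia, which passed the level only through day 3, at 6.91 and 10.5 (0.54).

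Lists of the pathways that the medium addresses gave small values. LIF signals through gp130 to STAT3. Its list (14 genes) had a median of 0.06 with 8 above and 2 past 0.25, which were Klf4 and Myc, and Socs3, the feedback inhibitor, was at 14.5 and 13.4 FPKM (-0.10). Inhibition of GSK3 stabilises beta-catenin. The 5 WNT feedback targets of 10 FPKM or more had a median of -0.03, with Ccnd1 (cyclin D1) at 82.4, 100 and 160 FPKM in the MEF, day 3 and day 6 libraries, and Dkk3 at 64.0, 52.4 and 56.2. BMP genes (14) had a median of -0.10 and 3 past -0.25: the BMP antagonist Grem1 at 23.7 and 16.2 FPKM (-0.52), the target gene Id3 at 253 and 202 (-0.33) and the ligand gene Bmp4 at 44.7 and 36.4 (-0.29). TGF-beta genes (21) had a median of 0.03, with Tgfb3 at 143 and 119 FPKM (-0.27). Immediate early genes (25) had a median of 0.03, and met the rule with the span median subtracted (0.13) but not as they stand. They had 6 past 0.25, among them Egr1 at 72.4 and 100 FPKM (0.46) and Egr3 at 11.4 and 17.8 (0.60). Of the 25, 2 passed the level only through day 3 and had to be higher there, among them Fosl1 at 7.48 and 11.0 FPKM (0.50). Fos was at 122 and 130 FPKM (0.09).

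Symbol families, taken as rows that share the letters before the first digit, gave an account that needed no list. Of 102 families with at least 8 rows of 10 FPKM or more, 6 were shifted up and 10 down. Down were the complex I families Ndufs (8 rows, median -0.18), Ndufb (10, -0.15) and Ndufa (13, -0.15), the ribosomal families Rpl (46, -0.15) and Rps (37, -0.13), and Cox (16, -0.13). The membrane traffic families Tmed (8, -0.15) and Chmp (8, -0.14) and the aldehyde dehydrogenases Aldh (9, -0.14) were also down, as was the stem H (14, -0.15), which mixes class I, histone variant and other genes. Chmp proteins form the ESCRT machinery that buds vesicles into the endosome. Up were Ptpn (tyrosine phosphatases, 8 rows, 0.14), Myo (unconventional myosins, 11, 0.11), Nup (nucleoporins, 16, 0.10), Cnot (subunits of the deadenylase, 8, 0.08), Kdm (histone demethylases, 10, 0.08) and Cep (centrosomal proteins, 8, 0.08). All 6 are families of long genes, with a median span of 45032 bases for Nup and 153890 for Myo. With the span median subtracted Nup stood at 0.10, Ptpn at 0.12 and Aldh at -0.14, while Rps stood at -0.01 and Myo at 0.05. Of 16 nucleoporin genes 13 were above MEFs. The nucleoporin Nup54, picked out after its value was seen, was at 11.1 and 13.5 FPKM (0.26).

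Several large pathways lay at the background. Proteasome genes (33) had a median of -0.03 with 1 past 0.25, and the chaperones of the endoplasmic reticulum (28) had 0.00. Cytosolic tRNA synthetases (20) had -0.02 and TCA cycle enzymes (19) -0.02, with no member of either past 0.25 in any direction. Glycolysis (16) had -0.07 with 1 past -0.25, Pdk1, the kinase that keeps pyruvate out of mitochondria, at 11.3 and 7.39 FPKM (-0.55). Pdk1 passed the level only through MEFs and had to be lower at day 3. Cholesterol synthesis (22) had -0.08, and Hippo pathway genes and YAP targets (26) had -0.01. Zinc finger genes of the Zfp series (72) had 0.00, with 6 past 0.25 and 1 past -0.25. Of the 72, 6 passed the level only through day 3 and had to be higher there, and 1 passed only through MEFs. Zfp618 and Zfp444, both past 0.25, were among those that passed only through day 3.

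Replication-dependent histones, short genes whose products package new DNA, had a median of 0.05 over 48 members, 27 of them above MEFs, and did not meet the rule as it stands. With the span median subtracted they stood at 0.15 with 41 of 48 above, and met it.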

How the data were processed

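Gene expression was read from the deposited table of gene values in FPKM, 1 column a long RNA library, per the file headers. The submitters' processing notes list HISAT2, Cufflinks and build mm9 without versions or roles. Ribosomal RNA was removed before library construction, per the labels' protocols, and no poly(A) selection is described. Strand setting, gene models and filters are not stated in these notes. The 4 small RNA libraries were not used here.

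From these values the difference of log2(FPKM + 1), day 3 minus MEF, was computed (pseudocount 1, with Python 3.11.15, numpy 2.4.6, pandas 2.3.3), which understates differences of low genes. The deposited FPKM hold no counts, so precision is known only as a relative depth from the most frequent ratio among 920 rows under 0.06 FPKM. With 1 library a group no test was made. A symbol on several rows (199 rows) stood at its highest row in lists. Of 17922 rows 17474 matched the RefSeq table (GRCm38.p6), used for span and promoters only, since the files are on mm9. The gene lists and members were chosen with earlier results of these data known. Named genes are the induced factors, the 10 largest differences each way at both levels, and members of each list with the largest differences or the highest MEF value; a few others were named after their values were seen. Alternatives covered the pseudocount, scaling, level filter, row names, rows at 0, and centring on span or level. The scripts were checked on simulated data.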

Additional observations from a re-analysis of the deposited data

How the results depend on the processing

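Each comparison had 1 library a side, so leaving out a replicate was not possible. No paired analysis was possible because neither side was repeated. Of 120 counts under other settings 86 stayed within 1.5 times the value reported and 34 did not, and the cause was not tested. Genes 0.25 higher (438) were 134 at a level of 30 FPKM, 1220 with no filter and 670 with the same total without mitochondrially encoded and the 50 highest rows. Genes 0.25 lower (462) were 228, 1075 and 264 under the same settings, and 269 after subtraction of the span median. The higher share of these calls was 48.7% as reported, 63.0% with the median set to 0, 56.9% with the same upper quartile, 71.7% with the same total, 64.1% with span and 61.7% with level subtracted, and 37.0% at 30 FPKM. Centring on level was chosen after seeing the data. Of genes of 1 FPKM or more, 2-fold calls (20 higher, 6 lower) were 55 and 31 with a pseudocount of 0.1, 6 and 2 with 5, and 13 and 3 without predicted names. Of genes of 10 FPKM or more (7 and 1), higher calls were 1 at 30 FPKM, 3 by the mean of both libraries, 20 with no filter, 4 with a pseudocount of 5 and 11 with the same total; lower calls were 0 at 30 FPKM, 2 with span subtracted, 6 with no filter, 2 with a pseudocount of 0.1 and 0 without predicted names. Families down (10) were 3 at 30 FPKM, 4 with level and 3 with span subtracted, and 22 with no filter, and families up (6) were 1, 3 with level subtracted and 3 with a pseudocount of 5. Lists down (4) were 1 with span subtracted and 8 with no filter, and lists up (6) were 10 and 3. Of list medians, read against the median of all rows, 812 moved by less than 0.1 and 3 by 0.1 or more. A change of sign was counted only for lists shifted as reported. It was met by 1, the early reprogramming surface and epithelial list at -0.0054 with no filter. The shift was met in 12 of 12 settings for lysosomal genes, 11 of 11 for mitochondrially encoded and aryl hydrocarbon receptor genes, 11 of 12 for complex I, 10 of 11 for interferon genes, 9 of 12 for ribosomal proteins, 9 of 11 for the epithelial list, 8 of 11 for microRNA genes, and 8 of 12 for cartilage and nucleotide synthesis genes.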
